A study of Rattus norvegicus with 24 samples.

Results

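The genes described here encode the amino acid and neurotransmitter carriers of 7 solute carrier families, SLC1, SLC3, SLC6, SLC7, SLC36, SLC38 and SLC43. Members were chosen by current gene symbol among the transcript clusters of the array that carried a single symbol, which gave 61 of the 18166 genes measured, each with 1 cluster. The choice used names only and no measured value. Slc7a6os bears a name of the family but is no carrier, and Slc6a20b, Slc6a21 and Slc7a3l1 are counted without an assigned role.

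The study profiled retinal microvessels (RMVs), full retinal tissue (RT), brain microvessels (BMVs) and full brain tissue (BT) from 6 Wistar rats, all males at 12 weeks of age. Frozen sections of the retinae and of a brain hemisphere were taken from each rat, a few sections were kept as tissue, and the microvessels were released from the others by homogenization, density centrifugation and capture on a nylon mesh. The brain samples left out the white matter, the choroid plexus and the membranes on the surface with their vessels. The study describes the vessel preparations as made of endothelial cells and pericytes. Markers of other cell types also gave signal in them, as given below. Every sample was run on its own array, the Affymetrix Rat Gene 2.0 ST, 24 arrays with 6 per group, and all values below are log2 signals or differences of log2 signals.

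Carriers of these families move amino acids and their derivatives across the cell membrane. In vessels with a blood-tissue barrier, where the endothelial junctions close the way between cells, polar amino acids have to pass through such carriers, and large neutral and cationic amino acids reach the neural tissue mainly this way. In neurons and glia other members of the same families end synaptic transmission by taking up glutamate, GABA, glycine and monoamines, and glutamine carriers of SLC38 link glia with neurons in the recycling of glutamate.

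A gene was called higher or lower at a 2-fold difference with an adjusted p under 0.05 in limma, with the adjustment over all 18166 genes. Scatter is given as SD over 6 arrays, and SE is that of the fitted difference. In bulk samples of this kind fewer cells of a type and less RNA per cell cannot be told apart. No detection call was used, and a dim level was set in each group at the 95th percentile of the means of 1379 olfactory, vomeronasal and taste receptor genes. It lay at 6.57 in RMVs, 5.93 in RT, 6.23 in BMVs and 5.69 in BT. Of the members, 33 stood above it in all 4 groups and 15 at or under it in every group. The receptor genes themselves had a median of 4.36 in RMVs against 3.88 in RT, and of 4.12 in BMVs against 3.64 in BT, so that dim genes read somewhat higher on microvessel arrays.

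Markers of endothelial cells (8 of 8 measured) and pericytes (8 of 8) were higher in both microvessel groups than in their tissues. Photoreceptor markers (7 measured) did not differ past the thresholds between the retinal groups, with a list mean of 11.75 to 12.14 on RMV arrays and 11.98 to 12.14 on RT arrays, and none of them reached the dim level in BMVs or BT. Fibroblast markers of the perivascular and meningeal kind (11 measured) were all higher in BMVs than in BT, with list means of 9.93 to 10.38 in BMVs against 6.66 to 7.02 in BT, and 6 of the 11 were higher in RMVs, with 7.04 to 7.46 in RMVs against 5.66 to 5.82 in RT. Neuronal markers (8) were lower in RMVs for 5 and in BMVs for all 8. RT array 5 and RMV array 5 stood apart by their pigment epithelium markers (6), with list means of 7.08 on RMV 5 against 5.93 to 6.30 on the other RMV arrays, and of 7.52 on RT 5 against at most 6.47 on the other RT arrays. Rpe65, Rgr and Tyrp1 carried this rise, with 8.54, 10.15 and 8.38 on RMV 5 and 9.57, 11.46 and 9.86 on RT 5. Best1, Tyr and Mlana varied little, with SDs of at most 0.22 in RMVs (Mlana) and 0.25 in RT (Tyr). Without RMV 5 and RT 5 the numbers of members called below were the same in all 4 comparisons of groups.

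Sequences around the start of 5 genes are shown because 4 of them, Slc7a1, Slc38a5, Slc43a1 and Slc7a15, were higher in both microvessel groups, and Slc38a1 was the member lower in both. Each window holds 250 bases before and 30 after the start position that the RefSeq promoter table of GRCr8 gives for the gene, written 5′ to 3′ on the strand of the gene. This start is the outer end of the annotated gene for Slc7a1 and Slc38a5. It lies inside the annotated bounds of the other 3, and the windows of Slc7a15 and Slc38a1 lie within their genes as a whole. Capitals mark the amino acid response element (TGATGNAA), the GC box (GGGCGG) and the E-box (CACGTG), on either strand, so that CCGCCC is a GC box read from the other side. Positions are chr12:11664238-11664517 on the plus strand for Slc7a1, chrX:16894441-16894720 on the minus strand for Slc38a5, chr3:90327072-90327351 on the plus strand for Slc43a1, chr6:37134472-37134751 on the minus strand for Slc7a15 and chr7:129681372-129681651 on the minus strand for Slc38a1.
Slc7a1: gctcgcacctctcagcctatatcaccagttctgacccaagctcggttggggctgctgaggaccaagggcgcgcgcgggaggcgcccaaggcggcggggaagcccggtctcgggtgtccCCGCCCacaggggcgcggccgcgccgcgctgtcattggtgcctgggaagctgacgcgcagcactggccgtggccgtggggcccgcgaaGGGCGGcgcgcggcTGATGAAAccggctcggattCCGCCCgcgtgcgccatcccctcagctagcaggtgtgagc
Slc38a5: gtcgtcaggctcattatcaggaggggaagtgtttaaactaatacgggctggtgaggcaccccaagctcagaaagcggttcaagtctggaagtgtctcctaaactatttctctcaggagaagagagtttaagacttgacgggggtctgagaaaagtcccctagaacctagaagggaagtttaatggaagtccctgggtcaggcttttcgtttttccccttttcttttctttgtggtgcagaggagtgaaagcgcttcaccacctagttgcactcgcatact
Slc43a1: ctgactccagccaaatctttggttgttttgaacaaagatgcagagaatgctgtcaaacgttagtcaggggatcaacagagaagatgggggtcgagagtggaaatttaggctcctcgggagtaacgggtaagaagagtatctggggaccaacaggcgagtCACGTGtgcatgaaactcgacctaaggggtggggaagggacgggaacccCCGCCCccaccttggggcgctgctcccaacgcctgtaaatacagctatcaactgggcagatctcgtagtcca
Slc7a15: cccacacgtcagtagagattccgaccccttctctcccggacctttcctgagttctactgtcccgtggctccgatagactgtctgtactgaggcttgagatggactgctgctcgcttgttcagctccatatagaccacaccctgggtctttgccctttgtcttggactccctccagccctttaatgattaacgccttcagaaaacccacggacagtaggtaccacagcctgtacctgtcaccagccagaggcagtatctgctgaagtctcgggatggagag
Slc38a1: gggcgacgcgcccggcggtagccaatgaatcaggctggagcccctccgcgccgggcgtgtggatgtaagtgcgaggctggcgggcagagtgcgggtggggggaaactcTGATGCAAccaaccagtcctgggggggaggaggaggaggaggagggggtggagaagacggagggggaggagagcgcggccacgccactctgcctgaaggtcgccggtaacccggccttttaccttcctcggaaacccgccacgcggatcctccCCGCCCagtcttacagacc

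Slc7a1 held an amino acid response element that begins at -30 from the start, together with 3 GC boxes, and Slc38a1 held the same element at -142 and a GC box at 11. Slc43a1 held an E-box and a GC box. Slc38a5 and Slc7a15 held neither these nor the other motifs searched, the ETS core (CCGGAA), the TCF/LEF core (CTTTGA), the forkhead core (TGTTTAC) and the TATA box (TATAAA). Of the 46 members with a window, 3 held the amino acid response element (Slc1a4, Slc38a1 and Slc7a1), against 3.76% of 33469 promoters of the same length. The GC box was found in 21 of the 46 members and in 32.2% of all promoters, and the E-box in 8 members and in 6.18% of all promoters. The forkhead core was found in 1 member, against 3.57% of all promoters, the TCF/LEF core in 7 (15.2%), the ETS core in 5 (14.3%) and the TATA box in 7 (13.7%). No match overlapped another in the windows shown. A match only says that the letters are present.

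More carriers passed the thresholds in the brain than in the retina when vessels were set against tissue, and so did more genes in all. Between RMVs and RT, 7 members were higher, against a background of 10.3% of all genes, and 3 were lower, against 0.947%. In BMVs over BT, 15 members were higher (background 16.3%) and 10 were lower (10.5%). The shares among members were 11.5% and 4.92% in the retina and 24.6% and 16.4% in the brain. The median difference over the members was 0.23 in the retina, beside 0.33 over all genes, and 0.42 in the brain, beside 0.30. All 6 RMV arrays lay above all 6 RT arrays for 21 members (background 42.6%) and below them for 11 (10.2%), and all 6 BMV arrays lay above all 6 BT arrays for 28 (40.8%) and below them for 16 (21.9%). Of the 298 other SLC and SLCO genes, 38 were higher and 7 lower in RMVs, and 61 were higher and 41 lower in BMVs. The count of lower members in the retina depended on the scaling of the arrays. It was 6 after quantile normalization (5.05% of all genes), 12 after centring on array medians (10.6%) and 17 after centring on reference genes (22.7%). Higher members numbered 5 under each of these, against 5.14%, 3.76% and 2.74% of all genes. The balance in the brain turned as well. After quantile normalization 13 members were higher (9.91% of all genes) and 12 lower (13.5%). Centring on array medians gave 11 higher (7.67%) and 15 lower (21.3%), and centring on reference genes 11 (7.73%) and 15 (21.1%).

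**Figure D1:**
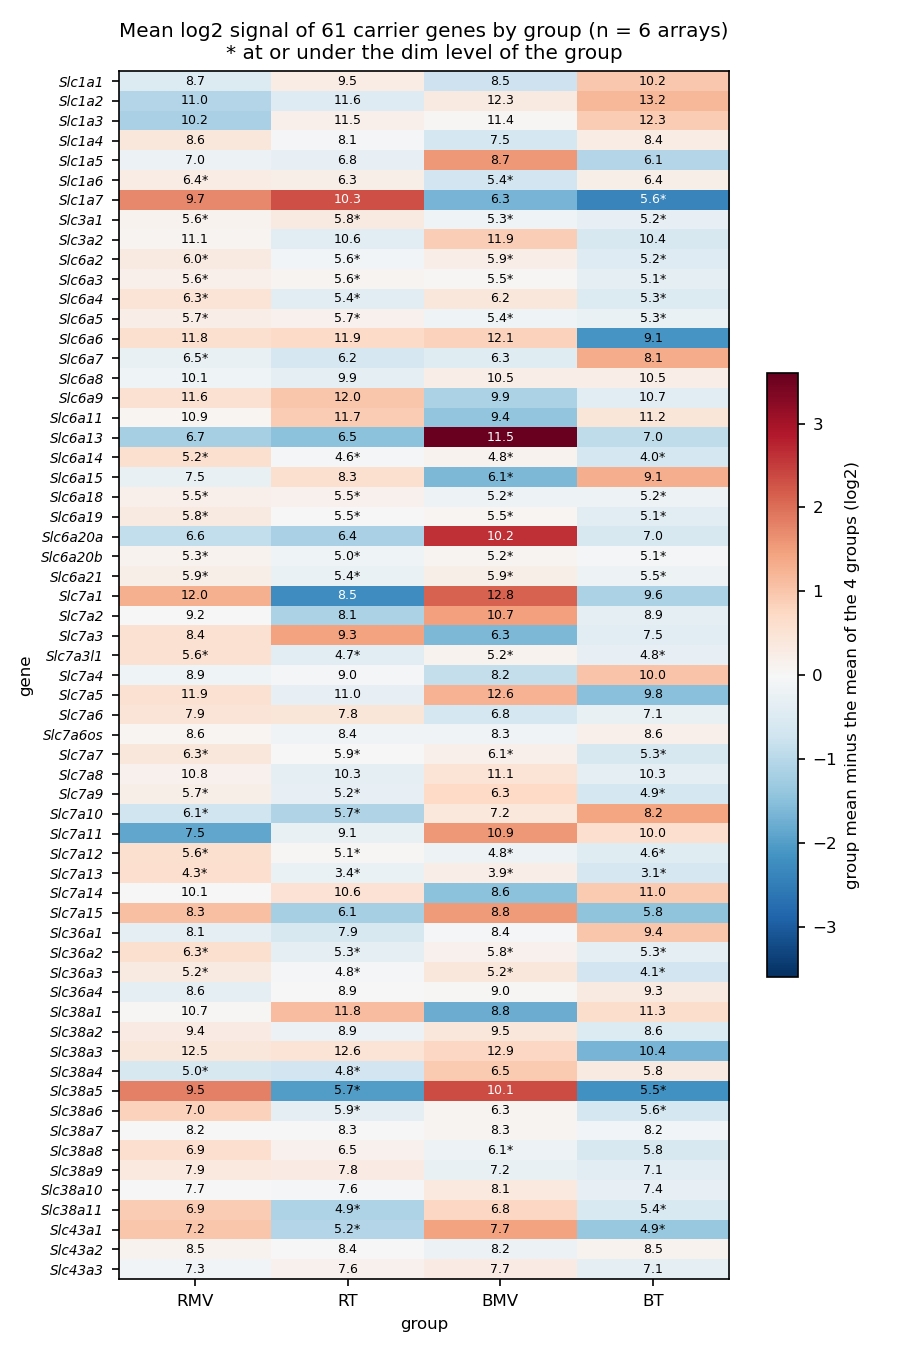
Mean log2 signal of the 61 genes (rows) in RMVs, RT, BMVs and BT (columns, n = 6 arrays each), with the color giving each mean minus the average of the 4 groups for that gene, and an asterisk where the mean is at or under the dim level. Slc38a5, Slc7a1, Slc7a15 and Slc43a1 stand out in both microvessel columns, Slc6a13 and Slc6a20a in BMVs, and Slc1a7 in both retinal columns.

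The 6 members higher in both microvessel groups were Slc7a1, Slc7a2, Slc7a15, Slc38a5, Slc38a11 and Slc43a1. Slc38a6 was called in RMVs alone, and 9 others in BMVs alone. Slc38a1 was lower in both.

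**Figure D2:**
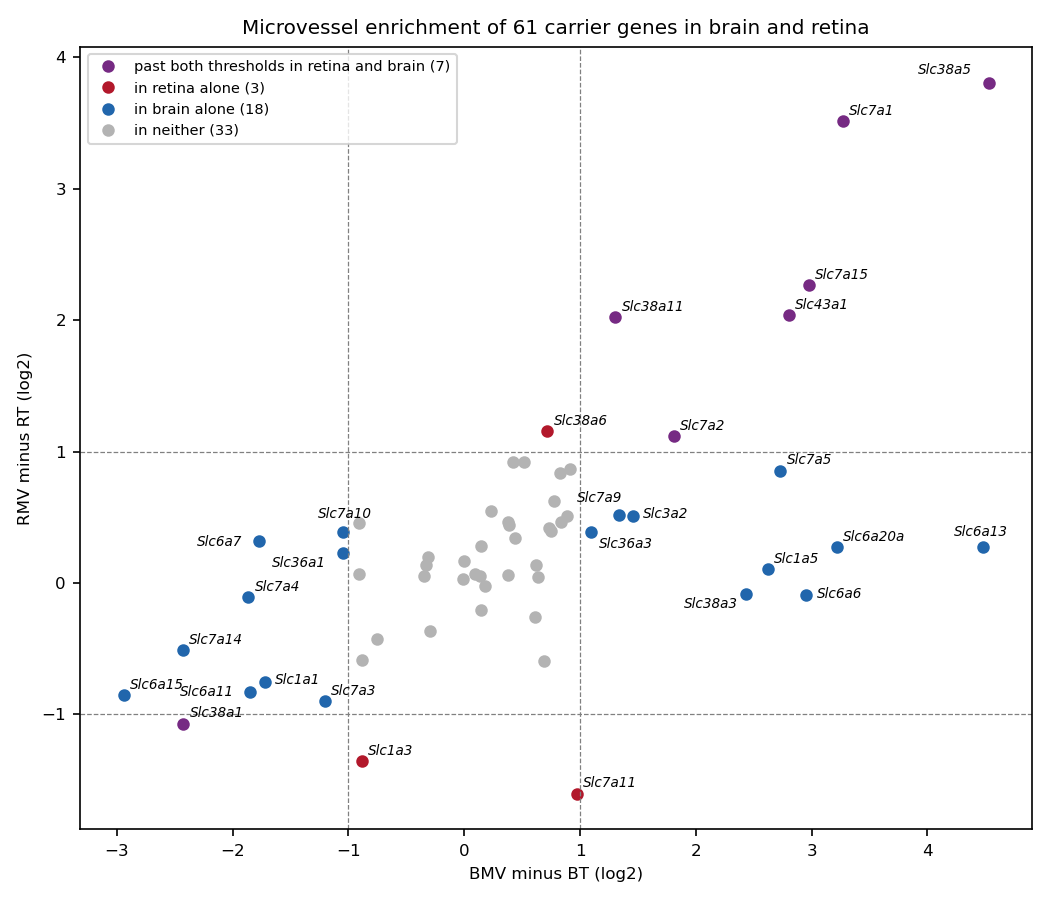
Difference of each of the 61 genes between BMVs and BT (horizontal axis, log2) and between RMVs and RT (vertical axis, log2), with dashed lines at a 2-fold difference and colors for genes past both thresholds of size and adjusted p. The 7 genes called in both organs hold 6 in the upper right and Slc38a1 in the lower left, and 18 genes called in the brain alone spread along the horizontal axis.

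Among the cationic amino acid carriers, Slc7a1 (CAT1), the widely expressed carrier of arginine and lysine, had the steepest enrichment. Its signal lay between 11.47 and 12.16 on RMV arrays (median 12.10), against 8.15 to 9.33 on RT arrays (median 8.31). In the brain it lay between 12.62 and 13.01 on BMV arrays (median 12.88), against 9.44 to 9.73 on BT arrays (median 9.57). No array of a vessel group overlapped its tissue. The differences were 3.51 for the retina and 3.27 for the brain (SE 0.14, adjusted p = 2.11e-17 and 2.24e-17), and their own difference of 0.24 was not past the threshold (95% interval -0.18 to 0.66, adjusted p = 0.313). Slc7a2 (CAT2), which carries the same substrates, averaged 9.23 ± 0.16 in RMVs against 8.11 ± 0.36 in RT, and 10.72 ± 0.16 in BMVs against 8.91 ± 0.17 in BT. It was 1.12 higher in RMVs (SE 0.12, adjusted p = 1.11e-08) and 1.81 higher in BMVs (adjusted p = 3.29e-13), and the retinal call was lost under each of the 3 other scalings, with 0.89 after quantile normalization. Slc7a3 (CAT3), a carrier known from neurons, ran the other way. It lay between 5.94 and 6.69 in BMVs against 7.02 to 7.89 in BT, a difference of -1.20 (adjusted p = 9.35e-09), and between 8.04 and 8.68 in RMVs against 9.25 to 9.56 in RT, a difference of -0.90, under the 2-fold limit. Under each of the 3 other scalings this retinal difference of Slc7a3 passed both thresholds. Slc7a4 and Slc7a14, relatives of the cationic carriers, were lower in BMVs than in BT, by differences of -1.86 and -2.43, and differed by -0.11 and -0.51 in RMVs. In RMVs Slc7a14 was called lower after centring on array medians and on reference genes, and Slc7a4 after centring on reference genes.

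The glutamine and neutral carriers of SLC38 gave the largest vessel difference in the retina. Slc38a5 (SNAT5), which moves glutamine, asparagine, histidine and serine with sodium against protons, lay between 9.19 and 9.80 on RMV arrays (median 9.46), against 5.35 to 5.99 on RT arrays (median 5.71), where its mean was under the dim level. BMV arrays had 9.84 to 10.55 (median 9.98), against 5.06 to 5.75 on BT arrays (median 5.59). The groups stood far apart, by 3.81 in the retina (SE 0.13, adjusted p = 3.32e-19) and by 4.53 in the brain (23.1-fold, adjusted p = 2.37e-21). Slc38a11, an orphan member, averaged 6.92 ± 0.35 in RMVs against 4.90 ± 0.11 in RT and 6.75 ± 0.06 in BMVs against 5.45 ± 0.08 in BT. It was called with 2.02 in the retina (adjusted p = 4.27e-15) and 1.31 in the brain (adjusted p = 1.22e-11), and its brain value fell under the 2-fold limit under each of the 3 other scalings, at 0.66 after quantile normalization. Slc38a6 differed by 1.15 between RMVs and RT (adjusted p = 5.07e-07), a call lost under each of the 3 other scalings (0.56 after quantile normalization), and by 0.72 between BMVs and BT, whose arrays overlapped.

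Slc38a1 (SNAT1), the glutamine carrier of many neurons, was the member lower in both organs. Its arrays read 10.39 to 10.90 in RMVs (median 10.75) against 11.63 to 11.85 in RT (median 11.80), and 8.51 to 8.97 in BMVs (median 8.94) against 11.11 to 11.47 in BT (median 11.23). Neither pair overlapped, and the differences were -1.07 in RMVs (SE 0.09, adjusted p = 4.04e-11) and -2.42 in BMVs (adjusted p = 3.13e-19). Slc38a3 (SNAT3), the glutamine carrier of astrocytes and Müller cells, differed between the organs. It lay between 12.72 and 12.96 in BMVs (median 12.89) against 10.35 to 10.53 in BT (median 10.40), 2.43 higher (SE 0.06, adjusted p = 6.92e-23), but between 12.36 and 12.64 in RMVs and 12.55 and 12.64 in RT, a difference of -0.08 (95% interval -0.20 to 0.03, adjusted p = 0.189). BT was the low group for this gene, and every array of the other 3 groups read at least 12.36. Slc38a2 (SNAT2), which responds to amino acid supply, differed by 0.51 in RMVs and 0.89 in BMVs, under the limit, and Slc38a4, Slc38a7, Slc38a8, Slc38a9 and Slc38a10 passed it in neither organ.

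Facilitative carriers of large neutral amino acids included Slc43a1 (LAT3). It averaged 7.23 ± 0.20 in RMVs against 5.19 ± 0.21 in RT, and 7.67 ± 0.16 in BMVs against 4.87 ± 0.22 in BT, both tissues being under the dim level. All vessel arrays lay above all arrays of their tissue, with differences of 2.04 in the retina (SE 0.11, adjusted p = 5.79e-15) and 2.80 in the brain (adjusted p = 1.33e-18). Slc43a2 (LAT4) and Slc43a3, a purine base carrier, were called in neither, with 0.14 and -0.26 in RMVs and -0.33 and 0.61 in BMVs.

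Heavy and light chains form the heteromeric exchangers, in which a light chain of SLC7 does the transport and a heavy chain of SLC3 brings it to the membrane. Slc7a5 (LAT1), the exchanger that carries leucine, phenylalanine and L-DOPA across the blood-brain barrier, lay between 11.71 and 12.12 on RMV arrays (median 11.82), against 10.82 to 11.28 on RT arrays (median 11.01). On BMV arrays it lay between 12.39 and 12.72 (median 12.57), against 9.50 to 9.95 on BT arrays (median 9.88). Vessel and tissue arrays were apart in both organs, but only the brain difference of 2.73 (SE 0.09, adjusted p = 3.04e-20) passed the 2-fold limit, and the retinal one was 0.85 (adjusted p = 3.16e-09). Its partner Slc3a2 (4F2hc) averaged 11.88 ± 0.07 in BMVs against 10.42 ± 0.09 in BT and 11.12 ± 0.17 in RMVs against 10.60 ± 0.15 in RT, which gave 1.46 in the brain (adjusted p = 8.38e-16) and 0.51 in the retina. The brain call of Slc3a2 was lost after centring on array medians (0.85) and on reference genes (0.86). The retinal minus the brain difference was -1.88 for Slc7a5 (SE 0.12, adjusted p = 1.02e-12), past both thresholds, and -0.95 for Slc3a2 (adjusted p = 2.45e-08), under the 2-fold limit. That of Slc3a2 passed both thresholds after quantile normalization and after centring on reference genes. RT read above BT for Slc7a5 by 1.19 (adjusted p = 2.94e-12), and by 0.93 after centring on array medians, under the limit.

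The aromatic-preferring light chain Slc7a15, described as a transporter in mice, averaged 8.33 ± 0.27 in RMVs against 6.07 ± 0.20 in RT, and 8.79 ± 0.08 in BMVs against 5.82 ± 0.26 in BT. It was higher by 2.26 in the retina (SE 0.12, adjusted p = 3.73e-15) and by 2.98 in the brain (adjusted p = 2.22e-18), with no overlap of arrays. Slc7a11 (xCT), which exports glutamate for cystine, went opposite ways in the vessels. RMV arrays read 7.26 to 7.61 (median 7.59) against 8.53 to 9.37 in RT (median 9.16), and BMV arrays 10.77 to 11.14 (median 10.93) against 9.70 to 10.12 in BT (median 10.01). The retinal difference was -1.60 (adjusted p = 2.03e-12). The brain difference of 0.97 (adjusted p = 1.31e-08) was just under the limit, and the retinal minus the brain difference was -2.57 (SE 0.16, adjusted p = 2.55e-13). Slc7a10 (Asc-1), an exchanger of small neutral amino acids and D-serine, was lower in BMVs than in BT (7.20 ± 0.18 against 8.25 ± 0.04, a difference of -1.04) and at or under the dim level in the retinal groups. Slc7a9, the light chain of the cystine carrier of kidney, was 1.34 higher in BMVs, near the dim level with a mean of 6.25, and lost the call under each of the 3 other scalings (0.68 after quantile normalization). Slc7a6, Slc7a7, Slc7a8 (LAT2), Slc7a12 and Slc7a13 were called in neither organ, and the heavy chain Slc3a1 was at or under the dim level in every group.

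**Figure D3:**
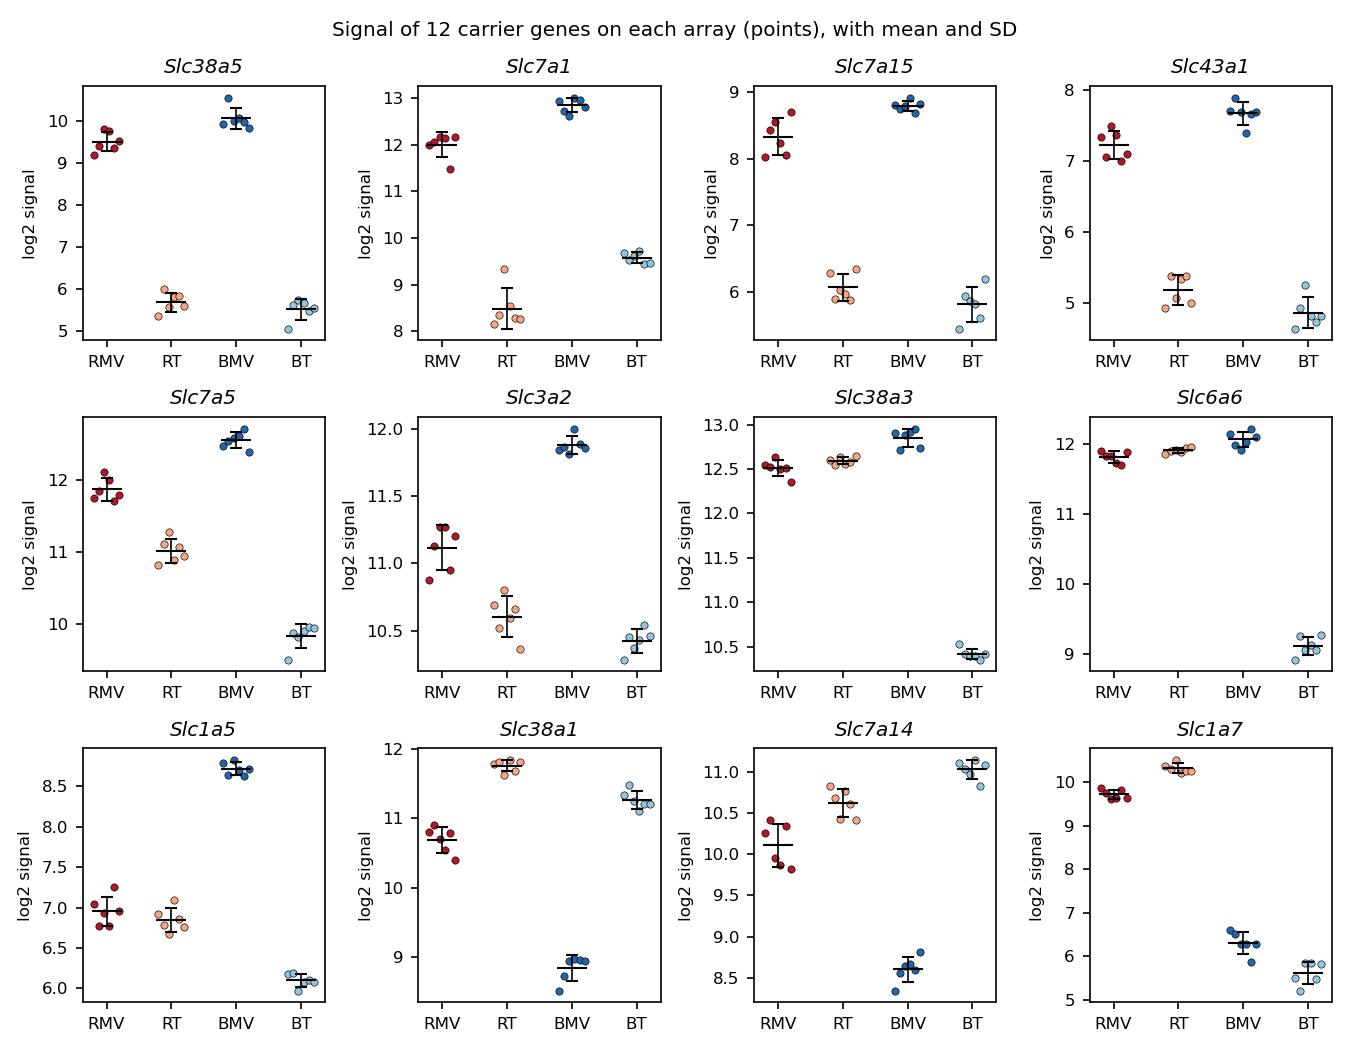
Log2 signal of 12 genes on each array (points) in RMVs, RT, BMVs and BT, with the mean and SD of 6 arrays, each panel on its own vertical scale that does not start at 0. Slc38a5, Slc7a1, Slc7a15 and Slc43a1 separate both vessel groups from both tissues, Slc38a3 and Slc6a6 separate BT from the other 3 groups, and Slc1a7 separates retina from brain.

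The carriers for GABA, taurine and related compounds included a member with a brain difference close to that of Slc38a5. Slc6a13 (GAT2), a GABA and taurine carrier, lay between 11.39 and 11.58 on BMV arrays (median 11.49), against 6.78 to 7.62 on BT arrays (median 6.92). RMV arrays read 6.28 to 7.58 (median 6.67) and RT arrays 5.91 to 8.16 (median 6.15), and these overlapped. The difference was 4.48 in BMVs over BT (22.3-fold, SE 0.26, adjusted p = 8.77e-15) and 0.28 in RMVs over RT (95% interval -0.26 to 0.81, adjusted p = 0.335). Its highest retinal values, 7.58 and 8.16, were those of RMV 5 and RT 5, the arrays with the high pigment epithelium markers. Slc6a20a (SIT1), the sodium-dependent proline carrier, had a like profile, with 9.91 to 10.29 in BMVs (median 10.25) against 6.53 to 7.39 in BT (median 7.06), 3.22 higher (SE 0.18, adjusted p = 4.69e-15), and 6.38 to 6.86 in RMVs against 5.95 to 7.42 in RT. All 11 fibroblast markers were higher in BMVs than in BT, as both genes were, among them Lum (10.08 in BMVs against 5.36 in BT) and Mgp (12.18 against 6.90). In the retina, where neither carrier was called, the list was split. Dcn, Col1a1, Col1a2, Col3a1, Mgp and Aspn were higher in RMVs, with 12.19 in RMVs against 7.41 in RT for Mgp and 9.23 against 5.17 for Aspn, while the other 5 were not called, with 3.92 in RMVs against 3.71 in RT for Lum. The part of these cells in the result was not tested.

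**Figure D4:**
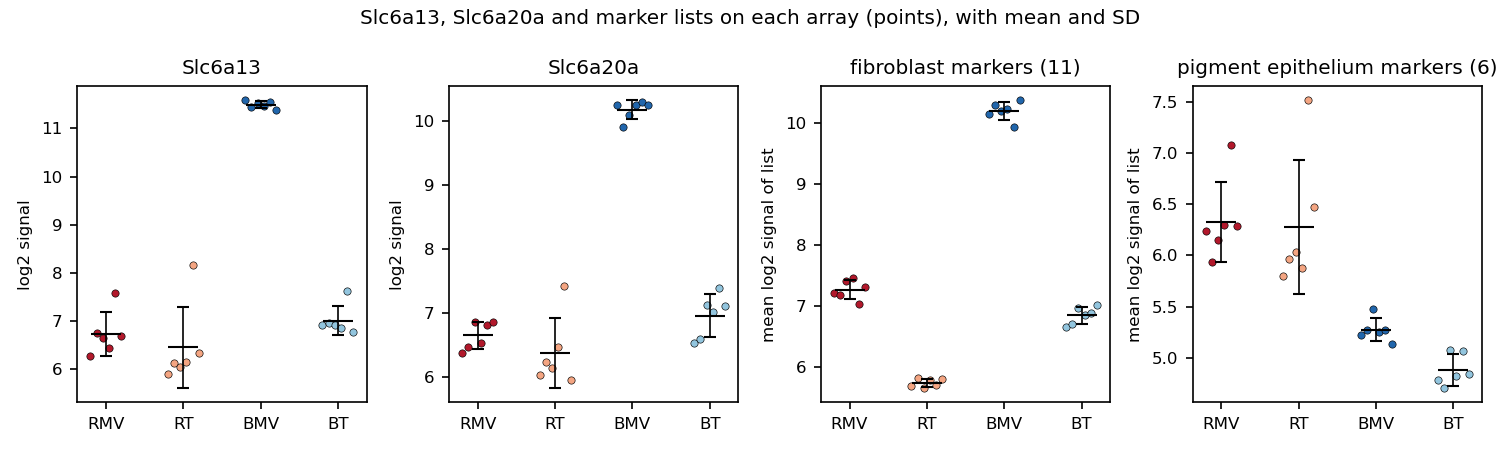
Log2 signal of Slc6a13 and Slc6a20a, and mean log2 signal of 11 fibroblast and 6 pigment epithelium markers, on each array (points) of RMVs, RT, BMVs and BT with the mean and SD of 6 arrays, each panel on its own scale. BMVs lie above the other groups for both carriers and for the fibroblast list, and 1 RMV and 1 RT array, both numbered 5, lie high for the pigment epithelium list.

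Slc6a6 (TauT), the taurine carrier, lay between 11.91 and 12.23 on BMV arrays (median 12.07), against 8.92 to 9.27 on BT arrays (median 9.10), and was 2.95 higher in BMVs (SE 0.06, adjusted p = 2.97e-23). In the retina it lay between 11.71 and 11.90 in RMVs (median 11.84) and between 11.86 and 11.96 in RT (median 11.91). The retinal groups overlapped, with a difference of -0.09 (95% interval -0.23 to 0.04, adjusted p = 0.185). Photoreceptor markers did not differ past the thresholds between RMVs and RT. Of the Müller cell markers (6 measured) 1 was higher and 1 lower in RMVs, with list means of 10.07 to 10.53 in RMVs against 10.50 to 10.94 in RT. The part of these cells in the levels of Slc6a6 and Slc38a3 in RMVs was not tested. Both genes were called lower in RMVs than in RT after centring on reference genes. Slc6a11 (GAT3), the GABA carrier of astrocytes, was lower in BMVs, with 9.06 to 9.64 in BMVs against 11.03 to 11.33 in BT (a difference of -1.85, adjusted p = 4.27e-15), and had a difference of -0.83 in RMVs, 10.87 ± 0.24 against 11.69 ± 0.10 in RT. Centring on array medians and on reference genes brought this retinal difference past the thresholds.

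Glutamate carriers were lower or under the limit in the vessels. Slc1a3 (GLAST), the glutamate carrier of Müller cells and astrocytes, lay between 9.76 and 10.32 in RMVs (median 10.22) against 11.39 to 11.69 in RT (median 11.49), a difference of -1.35 (SE 0.08, adjusted p = 1.59e-14). In BMVs it read 11.30 to 11.47 against 12.18 to 12.36 in BT, a difference of -0.88, which was called after centring on array medians and after centring on reference genes. Slc1a1 (EAAC1), a neuronal carrier, was lower in BMVs, 8.48 ± 0.48 against 10.20 ± 0.10 in BT (a difference of -1.72, adjusted p = 7.23e-11), and differed by -0.75 in RMVs. Under each of the 3 other scalings Slc1a1 was called lower in RMVs as well. Slc1a2 (GLT-1), the main glutamate carrier of astrocytes, was apart from its tissue on every array of both vessel groups but by less than 2-fold, -0.59 in RMVs and -0.88 in BMVs. Both differences of Slc1a2 were called after centring on array medians and after centring on reference genes. Slc1a6 and Slc1a7 (EAAT5), a carrier of photoreceptors and bipolar cells, were called in neither organ. After either centring Slc1a7 was called lower in RMVs, and under each of the 3 other scalings Slc1a6 was called lower in BMVs. Slc1a5 (ASCT2), an exchanger of neutral amino acids, was higher in BMVs. It lay between 8.63 and 8.83 in BMVs (median 8.71) against 5.97 to 6.18 in BT (median 6.09), 2.62 higher (SE 0.08, adjusted p = 4.95e-21), and between 6.77 and 7.25 in RMVs and 6.67 and 7.09 in RT, which overlapped.

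Other carriers lower in BMVs than in BT were Slc6a15 (B0AT2), a branched-chain amino acid and proline carrier of neurons, Slc6a7 (PROT), the brain proline carrier, and Slc36a1 (PAT1), a proton-coupled carrier of lysosomes. Slc6a15 lay between 5.85 and 6.39 in BMVs against 8.91 to 9.25 in BT, a difference of -2.94 (SE 0.09, adjusted p = 2.67e-20), and its retinal difference was -0.85, with 7.46 ± 0.22 in RMVs against 8.31 ± 0.15 in RT. This retinal difference passed both thresholds under each of the 3 other scalings. Slc6a7 averaged 6.31 ± 0.14 in BMVs against 8.08 ± 0.15 in BT, a difference of -1.77. For Slc36a1 it was -1.05, with 8.38 ± 0.11 in BMVs against 9.43 ± 0.13 in BT. Neuronal markers were lower in BMVs as well, with list means of 8.68 to 9.09 in BMVs against 11.63 to 11.77 in BT, and 8.96 to 9.21 in RMVs against 10.03 to 10.24 in RT, and astrocyte markers were lower in BMVs for 4 of 7. Their part in these differences was not tested. Slc36a3 was called higher in BMVs by 1.09, but its mean of 5.23 was under the dim level, and the call was lost under the other scalings. The carriers of noradrenaline (Slc6a2), dopamine (Slc6a3), serotonin (Slc6a4), glycine (Slc6a5, Slc6a9) and creatine (Slc6a8) were called in neither organ, and Slc6a2, Slc6a3 and Slc6a5 were at or under the dim level in every group. After centring on array medians and after centring on reference genes, Slc6a9 was called lower in the vessels of both organs.

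Whether enrichment itself differed between the organs was tested as the retinal minus the brain difference. It was positive past the thresholds for 9 members, against 10.4% of all genes, and negative for 8, against 5.15%. On the negative side were Slc6a13 (-4.20), Slc6a6 (-3.05), Slc6a20a (-2.94), Slc7a11 (-2.57), Slc38a3 (-2.52), Slc1a5 (-2.51), Slc7a5 (-1.88) and Slc1a7 (-1.28). For 6 of these, all but Slc7a11 and Slc1a7, BMVs were called above BT and RMVs were not called above RT. The positive side, led by Slc6a7 (2.09), Slc6a15 (2.09), Slc7a14 (1.92) and Slc7a4 (1.76), held carriers that were lower in BMVs than in BT, apart from Slc1a4, whose difference of -0.91 was under the limit there. The call of Slc1a7 was lost after quantile normalization (-0.79), that of Slc36a1 after quantile normalization (0.86) and centring on reference genes (0.95), and that of Slc6a11 under each of the 3 other scalings (0.88 after quantile normalization). After centring on reference genes 7 members were positive (6.62% of all genes) and 16 negative (11.2%).

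Retinal and brain microvessels were then compared with each other. In RMVs against BMVs 9 members were higher (background 5.72%) and 9 lower (5.25%), or 14.8% of members each, and all 6 arrays of the groups were apart for 19 higher (background 25.4%) and 20 lower members (21.5%). The whole tissues, RT against BT, had 6 members higher (6.29%) and 7 lower (11.1%), with arrays apart for 18 higher (22.0%) and 15 lower (26.7%). The split between the vessels was 7 higher (3.7% of all genes) and 11 lower (10.2%) after centring on array medians. That between the tissues was 5 (4.16%) and 11 (16.1%) with the same centring. After centring on reference genes it was 10 (12.3%) and 4 (7.12%). Median differences over the members were 0.07 in vessels and 0.18 in tissue, beside 0.08 and 0.02 over all genes. Of the 298 other SLC and SLCO genes, 26 were higher and 27 lower in RMVs against BMVs, and 28 higher and 34 lower in RT against BT.

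**Figure D5:**
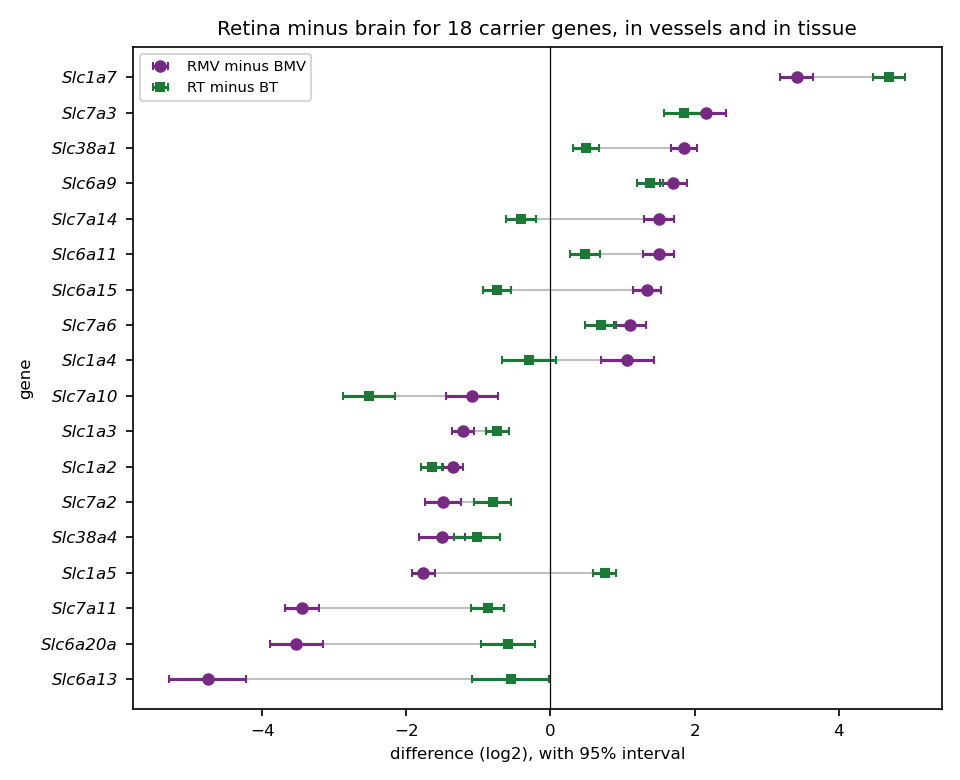
Difference between retina and brain (log2, with 95% interval of the fit) for the 18 genes called between RMVs and BMVs, with circles for RMVs minus BMVs and squares for RT minus BT. Slc1a7 lies at 3.41 in vessels and 4.70 in tissue, whereas Slc7a14, Slc6a15, Slc1a4 and Slc1a5 lie on opposite sides of 0 in vessels and tissue.

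The largest retinal excess was that of Slc1a7, which lay between 9.61 and 9.87 in RMVs (median 9.69) against 5.87 to 6.61 in BMVs (median 6.28), 3.41 higher (SE 0.11, adjusted p = 8.11e-20). The tissues showed the same order more widely, with 10.20 to 10.52 in RT (median 10.28) against 5.21 to 5.86 in BT (median 5.66), 4.70 higher (adjusted p = 3.09e-23). Photoreceptor markers were high in RMVs and under the dim level in BMVs, and their part in this difference was not tested. Slc7a3 followed with 2.16 in RMVs over BMVs and 1.86 in RT over BT, and Slc6a9 (GlyT1), a glycine carrier of glia and amacrine cells, with 1.71 and 1.38. Slc6a9 averaged 11.60 ± 0.25 in RMVs against 9.89 ± 0.15 in BMVs, and 12.03 ± 0.05 in RT against 10.65 ± 0.08 in BT. For Slc38a1 (1.85), Slc7a14 (1.51), Slc6a11 (1.50), Slc6a15 (1.34), Slc7a6 (1.10) and Slc1a4 (1.07) the vessels differed past the thresholds and the tissues did not, at 0.50, -0.41, 0.48, -0.74, 0.70 and -0.30 in that order. Markers of amacrine and inner retinal neurons (6 measured) were higher for all 6 in RMVs over BMVs and for 5 in RT over BT. Their list means were 9.53 to 9.95 in RMVs and 10.12 to 10.26 in RT. Müller cell markers (6) were higher in RMVs over BMVs for 4, and neuronal markers (8) were higher for 1 and lower for 1. The part of these cells in the values was not tested. The call of Slc7a6 was lost after quantile normalization (0.97) and after centring on array medians (0.81), and the call of Slc1a4 was lost after centring on array medians (0.77).

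On the lower side, Slc6a13 differed by -4.75 between RMVs and BMVs (SE 0.26, adjusted p = 1.06e-14), and by -4.92 without RMV 5 and RT 5. Slc6a20a followed with -3.52 and Slc7a11 with -3.45 (adjusted p = 2.83e-15 and 1.25e-19). In the tissues these genes differed by -0.55, -0.59 and -0.87. Slc1a5 differed by -1.76 between RMVs and BMVs, while RT read 0.75 above BT. Slc7a2 (-1.49), Slc38a4 (-1.51), Slc1a2 (-1.36), Slc1a3 (-1.21) and Slc7a10 (-1.09) were lower in RMVs as well. Of these, Slc38a4, Slc1a2 and Slc7a10 were also lower in RT than in BT, by differences of -1.02, -1.65 and -2.52, and Slc38a4 was at or under the dim level in both retinal groups and lost its tissue call after centring on reference genes (-0.70). Slc7a10 read 6.96 on RT 5 and 5.25 to 5.71 on the other RT arrays, and without RMV 5 and RT 5 its tissue difference was -2.77.

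In the tissues alone, RT read above BT for Slc6a6 by 2.80 (SE 0.06, adjusted p = 2.39e-23) and for Slc38a3 by 2.18 (adjusted p = 3.33e-22), 11.91 ± 0.04 in RT against 9.12 ± 0.13 in BT for Slc6a6 and 12.59 ± 0.04 against 10.42 ± 0.06 for Slc38a3. Between RMVs and BMVs they differed by -0.25 and -0.34, under the limit. Lower in RT than in BT were Slc6a7 (-1.92), Slc36a1 (-1.56), Slc7a1 (-1.09) and Slc7a4 (-1.05), and Slc7a1 and Slc7a4 were under the 2-fold limit after quantile normalization (-0.82 and -0.75) and after centring on reference genes (-0.77 and -0.73). Of the 6 members higher in both vessel groups, Slc38a5, Slc7a1, Slc7a15 and Slc43a1 read lower in RMVs than in BMVs by less than 2-fold, at -0.55, -0.85, -0.46 and -0.45. Slc7a2 was lower past the limit (-1.49), and Slc38a11 read 0.17 higher. Slc7a5 and Slc3a2, called over tissue in BMVs alone, read -0.68 and -0.76. The endothelial marker list read 11.08 to 11.67 in RMVs and 12.14 to 12.28 in BMVs, and its part in these values was not tested. Centring on array medians brought Slc7a1 and Slc3a2 past the thresholds, lower in RMVs.

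Genes that make, store or break down the carried compounds were counted from a list of 30, of which 25 were measured. In RMVs over RT 3 were higher (10.3% of all genes) and 2 lower (0.947%). In BMVs over BT 3 were higher (16.3%) and 8 lower (10.5%). Higher in both were Nos3, the endothelial nitric oxide synthase that uses arginine (10.07 in RMVs against 6.46 in RT, and 10.99 in BMVs against 7.09 in BT), and the monoamine oxidases Maoa and Maob, which were 2.25 and 2.80 higher in RMVs and 1.95 and 1.15 higher in BMVs. Lower in both were Gad2, which makes GABA, with -1.12 in RMVs and -3.06 in BMVs, and Slc17a6, a vesicular glutamate carrier, with -1.35 and -1.85. Between the vessels 8 were higher (5.72% of all genes) and 2 lower (5.25%) in RMVs. Between the tissues 6 were higher (6.29%) and 5 lower (11.1%) in RT.

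The other 27 members were called in none of the 4 comparisons of groups, and 14 of them were at or under the dim level in every group. Their differences ran between -0.36 and 0.92 in RMVs over RT and between -0.91 and 0.91 in BMVs over BT. Among those above the dim level in all groups were Slc6a8, the creatine carrier (0.17 in RMVs), Slc7a8 (0.46 and 0.83), Slc36a4 (-0.36 and -0.30) and Slc38a9, an arginine sensor of lysosomes (0.06 and 0.14). A value under the limit was not always a small one beside its error. Of the 51 members not called in the retina, 34 had an adjusted p under 0.05 at less than 2-fold. Of the 36 not called in the brain, 28 did. The matching share of all genes was not counted, so these counts are not read as a feature of the carriers. The median vessel difference over all genes was itself 0.33 for the retina and 0.30 for the brain. After quantile normalization 25 of the 51 and 13 of the 36 changed sign.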

How the data were processed

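RNA of 24 samples, 6 each of RMVs, RT, BMVs and BT, was measured on 1 array per sample, and arrays were assigned to groups by their labels. The deposited values are log2 signals that the authors normalized in the Affymetrix Expression Console (version 4.0, from the submitters' notes); how they were normalized and summarized is not given in the sources used here. They were used without further normalization, so differences in overall level between arrays remain in them. Of 36685 clusters, 18511 carried 1 symbol, 18394 of these were matched by Entrez identifier, and the cluster with the highest mean was kept per gene, which left 18166 genes. No columns of other samples were present.

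All 4 groups entered 1 linear model without a replicate block in limma 3.58.1 (R 4.3.3) with empirical Bayes moderation, tests were two-sided, and p-values were adjusted by Benjamini and Hochberg over all genes. The script was tested on simulated data. Where replicates are different rats, p-values measure the spread between them, and the number of arrays limits the precision. Named are all members past both thresholds in at least 1 comparison of groups, with array values for up to 12 per comparison; others are given by difference, count or range. Members and gene lists were chosen with earlier results of these data known. Alternatives were other scalings, a filter on low signal, the mean of clusters, the compared groups alone, a replicate block, trend and robust moderation, limma's treat and leaving out each array. Correction of background was not varied, since no scanner intensities were used.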

Additional observations from a re-analysis of the deposited data

Results flagged for a closer look

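Single arrays stood apart from the other 5 of their group, by a gap that is large beside the whole range of the group, in 14 of 136 groups of the called members (34 genes in 4 groups), where chance gives about 1 in 20. RT array 5 read 8.16 for Slc6a13, 7.42 for Slc6a20a and 6.96 for Slc7a10, each the highest of RT, and RMV array 5 read 7.58 for Slc6a13, the highest, and 11.47 for Slc7a1, the lowest of RMVs. These are the arrays with high pigment epithelium markers (Rgr 10.15 on RMV 5 against 7.38 to 8.45 on the other RMV arrays, and 11.46 on RT 5 against 7.94 to 9.54 on the other RT arrays), and the part of that tissue in the values was not tested. Slc6a13 also read 7.62 on BT array 5. In RMVs, Slc1a3 read 9.76 on array 6 and Slc7a9 5.50 on array 3, both low. RT array 3 read 9.33 for Slc7a1 and RT array 4 read 9.56 for Slc7a3, both high. Slc7a2 read 10.42 on BMV array 5, the lowest, and Slc38a5 10.55 on BMV array 2, the highest. BT array 1 read 9.50 for Slc7a5, low, and 10.53 for Slc38a3, high.

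Vessel enrichment differed between retina and brain, by the test of the difference itself, for 17 members. The retinal minus the brain difference was negative for Slc6a13 (-4.20), Slc6a6 (-3.05), Slc6a20a (-2.94), Slc7a11 (-2.57), Slc38a3 (-2.52), Slc1a5 (-2.51), Slc7a5 (-1.88) and Slc1a7 (-1.28). It was positive for Slc6a7 (2.09), Slc6a15 (2.09), Slc7a14 (1.92), Slc7a4 (1.76), Slc7a10 (1.43), Slc1a4 (1.36), Slc38a1 (1.35), Slc36a1 (1.28) and Slc6a11 (1.02). None of the genes on the positive side was called higher in RMVs than in RT, and Slc38a1 was called lower there (-1.07). All of them but Slc1a4 were called lower in BMVs than in BT.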

How the results depend on the processing

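The 83 called differences of members were recomputed under each alternative that held them, which gave 2801 values. Of these 2735 kept the call, 66 lost it with the same sign and 0 changed sign. The mean of clusters, the replicate block, trend and robust moderation and the compared groups alone left the differences unchanged. They lost 0 calls and say little about stability. The low signal filter left unchanged the 79 differences that it kept. It removed Slc36a3, Slc7a9 and Slc38a4 before testing, so their calls were not recomputed. With it, 13 members were higher in BMVs over BT (18.8% of the genes kept) in place of 15. Lower members numbered 8 (6.51%) in place of 9 in RMVs over BMVs, and 6 (14.1%) in place of 7 in RT over BT. Leaving out an array outside a comparison left its difference unchanged too. Calls lost numbered 11 after quantile normalization, 10 after centring on array medians and 11 after centring on reference genes. Treat lost 20, and leaving out single arrays lost 13. Scaling moved the median of all genes in RMVs over RT, which was 0.33, to -0.15 (quantile normalization), -0.32 (centring on array medians) and -0.60 (centring on reference genes, Actb, B2m and Hprt1), and in BMVs over BT, which was 0.30, to -0.15, -0.31 and -0.31. Among all genes called in RMVs over RT the share that was higher was 91.6%, and 50.4%, 26.2% and 10.8% under these scalings. In BMVs over BT it was 60.9%, and 42.4%, 26.5% and 26.9%. Shares of all genes follow each count in brackets. Members lower in RMVs numbered 3 (0.947%), and 6 (5.05%), 12 (10.6%) and 17 (22.7%) under these scalings. Members lower in RT than in BT numbered 7 (11.1%), and 11 (16.1%) after centring on array medians. They numbered 4 (7.12%) after centring on reference genes and 4 (7.73%) with treat at 2-fold. Members higher in RT numbered 6 (6.29%), and 10 (12.3%) after centring on reference genes. Members with a negative retinal minus brain difference numbered 8 (5.15%), and 16 (11.2%) after centring on reference genes. Those with a positive one numbered 9 (10.4%), and 5 (5.97%) with treat. Of the reference genes, B2m itself differed by 2.28 between RMVs and RT and by 2.01 between BMVs and BT. Of the 51 members not called between RMVs and RT, 25 changed sign after quantile normalization. Newly called lower among these 51 were 3 after quantile normalization (Slc1a1, Slc6a15 and Slc7a3). Centring on array medians newly called 9 (Slc1a1, Slc1a2, Slc1a7, Slc36a4, Slc6a11, Slc6a15, Slc6a9, Slc7a14 and Slc7a3). Centring on reference genes newly called 14, these and Slc38a3, Slc3a1, Slc43a3, Slc6a6 and Slc7a4. Among the 36 not called between BMVs and BT, quantile normalization newly called 3 (Slc1a4 and Slc1a6 lower, Slc7a11 higher). Each centring newly called 5 as lower (Slc1a2, Slc1a3, Slc1a4, Slc1a6 and Slc6a9). The cause of these shifts was not tested.

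Leaving out 1 array at a time gave 7 to 7 higher and 3 to 3 lower members in RMVs over RT, 15 to 16 and 9 to 10 in BMVs over BT, 8 to 9 and 9 to 9 in RMVs over BMVs, 6 to 6 and 6 to 7 in RT over BT, and 8 to 10 and 8 to 8 for the difference of enrichment. Calls lost that way were Slc1a4 (0.99 at the lowest) in RMVs over BMVs, Slc38a4 (-0.95) in RT over BT, Slc7a10 (-0.98) in BMVs over BT and Slc6a11 (0.95) for the difference of enrichment. RMV 5 and RT 5 were left out together after the data were seen, which gave 8 members with a positive difference of enrichment in place of 9, since Slc6a11 fell to 0.97.

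A replicate block left every count of called members as it was, 7 higher and 3 lower in the retina, 15 higher and 10 lower in the brain. The labels do not say that a number marks a rat, and the numbers were not taken as pairs. Deviations of same-numbered arrays correlated between -0.09 and 0.15. In RMVs and RT all were positive (0.04 to 0.15), and 5 of 6 arrays correlated best with their own number. This held for 4 of 6 in RMVs and BT, and for 3 each in RT and BMVs and in BMVs and BT. It held for 2 in RMVs and BMVs and for 1 in RT and BT. Pairing by number is therefore not excluded.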
